A study of Rattus norvegicus with 8 samples.

Results

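The serotonin receptor genes described here were Htr1a, Htr1b, Htr1d, Htr1f, Htr2a, Htr2c, Htr3a, Htr4, Htr6 and Htr7, chosen by name as 10 of the 17337 genes with deposited counts. All 10 were among the 12014 genes that passed the filter on low counts. The mRNA came from the striatum of 8 rats, 4 of which self-administered methamphetamine (METH) and 4 saline. The rats were wild-type (WT) male Sprague-Dawley animals whose age is not given in the sources used here. All of them had been trained to press a lever for food, had received a jugular catheter and had 2 h sessions per day over 16 days. METH was given at 0.05 mg/kg per infusion. Rats whose lever pressing was stable at the end were chosen for plasma sampling. Whether the same choice was made for the striatal RNA is not stated in the sources used here. The rats were anesthetized with ketamine and xylazine before the brain was removed, and the control animals are therefore not untreated rats. The question addressed by the comparison was how the transcripts of the striatum differ after METH self-administration.

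Serotonin reaches the striatum in axons of the raphe nuclei and acts there on receptors of several families. The Htr1 receptors couple to inhibitory Gi/o proteins and lower cyclic AMP, the Htr2 receptors couple to Gq and phospholipase C, and the receptors encoded by Htr4, Htr6 and Htr7 couple to Gs and raise cyclic AMP. Htr3a differs from all of these in encoding a subunit of a cation channel that serotonin opens directly. METH releases serotonin as well as dopamine through their transporters. Because a transcript measured in the striatum comes from cell bodies in that tissue, receptors on axons arriving from elsewhere are not counted.

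No serotonin receptor gene passed the test between METH and saline rats. By the edgeR quasi-likelihood test with Benjamini-Hochberg adjustment over all genes, the threshold was an FDR under 0.05, for genes whose log2 level averaged above 1 in CPM, the count scaled to a common library size by TMM. This called 0 of the 10 receptor genes, beside 62 of all 12014 genes (0.516%). DESeq2 also called 0 of the 10, beside 186 of all genes (1.55%). The rule could call only 7 of the receptor genes, because Htr1a, Htr4 and Htr7 lay below its minimum level, and dropping that minimum left the count at 0. At an unadjusted p under 0.05 by the same edgeR test, 4 of the 10 differed, beside 11.1% of all genes. Of these, Htr1b was higher in METH rats, beside 6.26% of all genes in that direction, and Htr1a, Htr2c and Htr6 were lower, beside 4.88%. In all 10 receptor genes the METH and saline rats overlapped, whereas 2.65% of all genes had every METH rat below every saline rat and 3.75% had every METH rat above.

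The values of the receptor genes lay further from 0 than those of most genes, mainly below it. Their median log2 fold change of METH against saline was -0.27, and 7 of the 10 were below 0. Over all genes tested the median was -0.01, and 51.4% were below 0. The median size of the log2 fold change, without its sign, was 0.29 for the receptor genes and 0.12 for all genes. These medians and shares are descriptions of a short list, and no test was made over it. All genes were not matched to the receptor genes by level, which limits the comparison of sizes. Htr1a, Htr1f, Htr2a, Htr4 and Htr7 had means under 100 counts in each group and SEs between 0.31 and 0.65. The sizes of their fold changes are therefore uncertain.

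**Figure D1:**
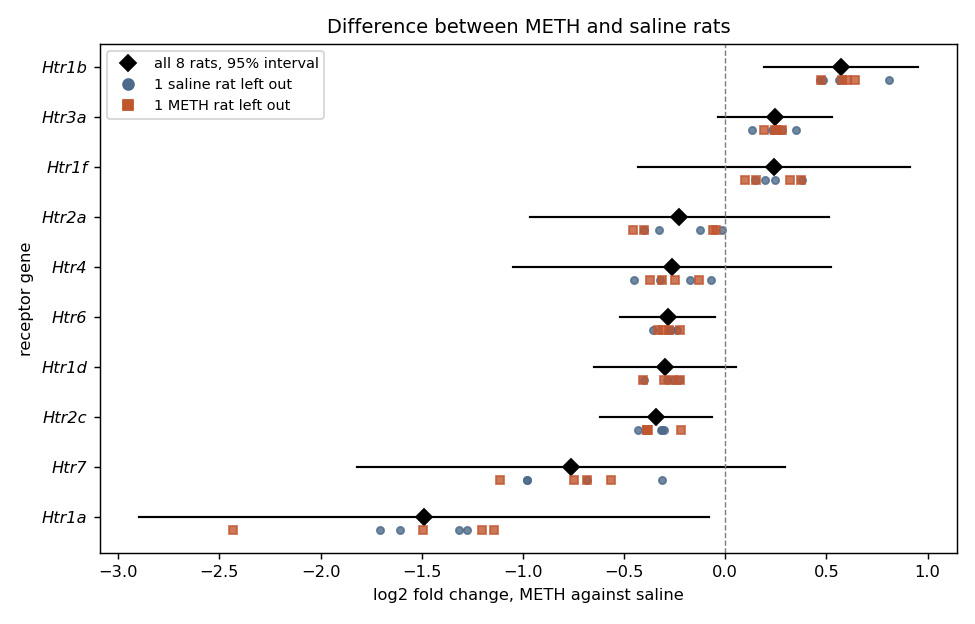
The x axis gives the log2 fold change of METH against saline and each row is a receptor gene. Black diamonds with lines are the values from all 8 rats with their 95% intervals, and the smaller points are the values with 1 saline rat (circles) or 1 METH rat (squares) left out. Htr1b at 0.57 is the highest and Htr1a at -1.49 the lowest, and the intervals of Htr1b, Htr1a, Htr2c and Htr6 do not reach 0.

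The sequences before the start of the Htr1b, Htr2c and Htr6 genes are shown because these are the well-counted receptor genes with an unadjusted p under 0.05. They are the 250 bases upstream of the annotated gene start on the gene's strand, from RefSeq on build GRCr8, which is not the rn6 build on which the reads were counted. Capitals mark each CG pair, a C followed by a G on the strand shown, where DNA methylation can occur. Methylation was not measured.
Htr1b, minus strand, chr8:91414816-91415065: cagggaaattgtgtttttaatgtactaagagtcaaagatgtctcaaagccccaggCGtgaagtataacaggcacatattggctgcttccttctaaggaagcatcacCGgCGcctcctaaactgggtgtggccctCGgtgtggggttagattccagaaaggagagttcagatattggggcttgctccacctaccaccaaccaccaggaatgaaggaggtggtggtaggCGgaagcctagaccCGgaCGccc
Htr2c, plus strand, chrX:115452940-115453189: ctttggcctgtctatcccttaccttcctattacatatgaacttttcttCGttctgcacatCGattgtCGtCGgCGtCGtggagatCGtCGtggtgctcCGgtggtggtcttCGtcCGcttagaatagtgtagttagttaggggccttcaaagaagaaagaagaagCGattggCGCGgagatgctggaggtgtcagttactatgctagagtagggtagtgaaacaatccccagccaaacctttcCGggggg
Htr6, minus strand, chr5:156595148-156595397: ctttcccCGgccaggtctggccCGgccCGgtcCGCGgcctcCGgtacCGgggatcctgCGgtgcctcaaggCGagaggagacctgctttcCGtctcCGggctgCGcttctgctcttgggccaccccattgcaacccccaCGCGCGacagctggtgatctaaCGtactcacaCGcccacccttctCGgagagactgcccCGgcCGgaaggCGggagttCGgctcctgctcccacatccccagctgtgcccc
The windows differ in base composition, with 7 CG pairs and 52.4% G or C for Htr1b, 15 and 50.4% for Htr2c, and 22 and 69.2% for Htr6.

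A window of this kind was found for 6 of the 10 receptor genes, namely these 3 and Htr1d, Htr1f and Htr7. Motifs of activity-regulated and general transcription factors were searched on both strands. These were the CRE (TGACGTCA), its core TGACG, AP-1 (TGACTCA), EGR (GCGTGGGCG or GCGGGGGCG), NBRE (AAAGGTCA), the GC box GGGCGG and the TATA box TATAAA. None of them occurred in the windows of Htr1b, Htr2c, Htr6 or Htr1f. The Htr7 window held 1 EGR motif and 1 CRE core, which begin 87 and 79 bases before the gene start and overlap by 1 base. The Htr1d window held 3 GC boxes, beginning 217, 71 and 51 bases before the start. Among 33469 promoters of the same length, 2.85% held the EGR motif, 18.2% the CRE core and 30.5% the GC box. The other motifs were held by 1.59% (CRE), 4.05% (AP-1), 1.24% (NBRE) and 12.9% (TATA box). A match is a run of letters and not a site at which binding was measured.

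The 8 libraries held between 18135939 and 21211920 counts, and rats of the same group always differed beyond counting error, with chi-square values of 10.1 to 27.6 per degree of freedom. They were treated as separate replicates. Markers of striatal projection neurons were abundant in every rat, with Drd1 between 450 and 515 CPM, as the labelled tissue calls for. METH replicate 3 stood apart on the first principal component, at 39.5. The other METH rats were between 0.257 and 5.29, and the saline rats between -24.6, in saline replicate 3, and -4.17. Saline replicate 1 held the cortical marker Slc17a7 at 65.8 CPM, beside 3.12 to 12.2 CPM elsewhere, and Neurod2 at 74 counts, beside 0 to 4. No batch is named in the labels, so no values within batches could be given.

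Among the Gi/o-coupled receptors, Htr1b had the highest fold change of the 10 genes. Htr1b encodes a receptor that projection neurons of the striatum make and carry to their axon terminals, where it inhibits transmitter release. It was at 26.2, 25.1, 47.5 and 32.0 CPM in saline replicates 1 to 4 and at 46.2, 58.5, 41.9 and 48.3 CPM in METH replicates 1 to 4. All saline rats but replicate 3 lay below all METH rats. The mean was 32.7 ± 10.3 CPM in saline rats (SD, n = 4) and 48.7 ± 7.08 CPM in METH rats (SD, n = 4), 1.49-fold higher with a 95% interval from 1.14 to 1.94. The log2 fold change was 0.57 (SE 0.18), with an unadjusted p of 0.00615 and an FDR of 0.245 by the edgeR quasi-likelihood test. The exact permutation test over the 70 ways to label the rats gave p = 0.0857, where the smallest it can give is 0.0286. Without saline replicate 3 the log2 fold change was 0.81 and Htr1b passed the test at an FDR of 0.0117, the only such case among the 8 fits that left out 1 rat. In the other 7 fits the FDR lay above the threshold.

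Htr1a had the lowest fold change and the fewest counts. It encodes the receptor through which serotonin neurons inhibit themselves, and it is known for its high level in the raphe nuclei and the hippocampus. It had 16, 32, 35 and 13 counts in saline replicates 1 to 4 and 3, 9, 1 and 20 counts in METH replicates 1 to 4. METH replicate 4 lay within the saline range, and the other METH rats lay below it. The mean was 1.196 ± 0.531 CPM in saline rats (SD, n = 4) and 0.422 ± 0.451 CPM in METH rats (SD, n = 4). Its log2 fold change was -1.49 (SE 0.65), with a 95% interval from -2.90 to -0.08, an unadjusted p of 0.0397 and an FDR of 0.428 by the edgeR quasi-likelihood test. The exact permutation p was 0.0857. At 3 counts, which correspond to between 0.142 and 0.169 CPM, METH replicates 1 and 3 were at or under the floor of detection. The fold change was between -2.43 without METH replicate 4 and -1.14 without METH replicate 3, and the unadjusted p stayed under 0.05 in 3 of those 8 fits.

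In bulk tissue, fewer cells of a type and less RNA per cell cannot be told apart, and genes known from the ventral striatum and its neighbours were examined beside Htr1a. Of that list of 7 genes, 5 were tested and 0 were called. At an unadjusted p under 0.05, 2 lay lower in METH rats, beside 4.88% of all genes. The 2 were Cartpt, which encodes a neuropeptide of the nucleus accumbens, and Calcr, which encodes the calcitonin receptor. Cartpt was at 33.4, 18.6, 27.5 and 12.2 CPM in saline rats and at 4.11, 9.19, 3.05 and 10.9 CPM in METH rats. Calcr was at 3.18, 6.15, 8.94 and 2.32 CPM in saline rats and at 0.147, 2.09, 0.0565 and 1.79 CPM in METH rats. Both had every METH rat below every saline rat, beside 2.65% of all genes. The other tested genes of the list overlapped between groups, with log2 fold changes of -0.67 for Dlk1, 0.12 for Crym and -0.03 for Drd3. The summed level of the list was between 278 and 398 CPM in saline rats and between 296 and 395 CPM in METH rats. Crym made up most of that sum, at 241 to 343 CPM in saline rats and 284 to 367 CPM in METH rats. The sum therefore says little about the other genes of the list. The part of the listed genes in the Htr1a values was not tested.

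Htr1d and Htr1f, the remaining Gi/o-coupled members, stayed closer to 0. Htr1d, which encodes a receptor related to that of Htr1b, was at 12.7, 9.65, 14.2 and 13.5 CPM in saline rats and at 9.45, 8.62, 12.5 and 10.3 CPM in METH rats. Its log2 fold change was -0.30 (SE 0.16), with an unadjusted p of 0.0922 and an FDR of 0.505 by the edgeR quasi-likelihood test. Htr1f was at 1.45 to 2.32 CPM in saline rats and at 1.52 to 2.74 CPM in METH rats. Its log2 fold change was 0.24 (SE 0.31), opposite in sign to that of Htr1d, and its 95% interval from -0.43 to 0.91 spans 0. With 1 rat left out it was between 0.10, without METH replicate 1, and 0.38, without saline replicate 3.

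**Figure D2:**
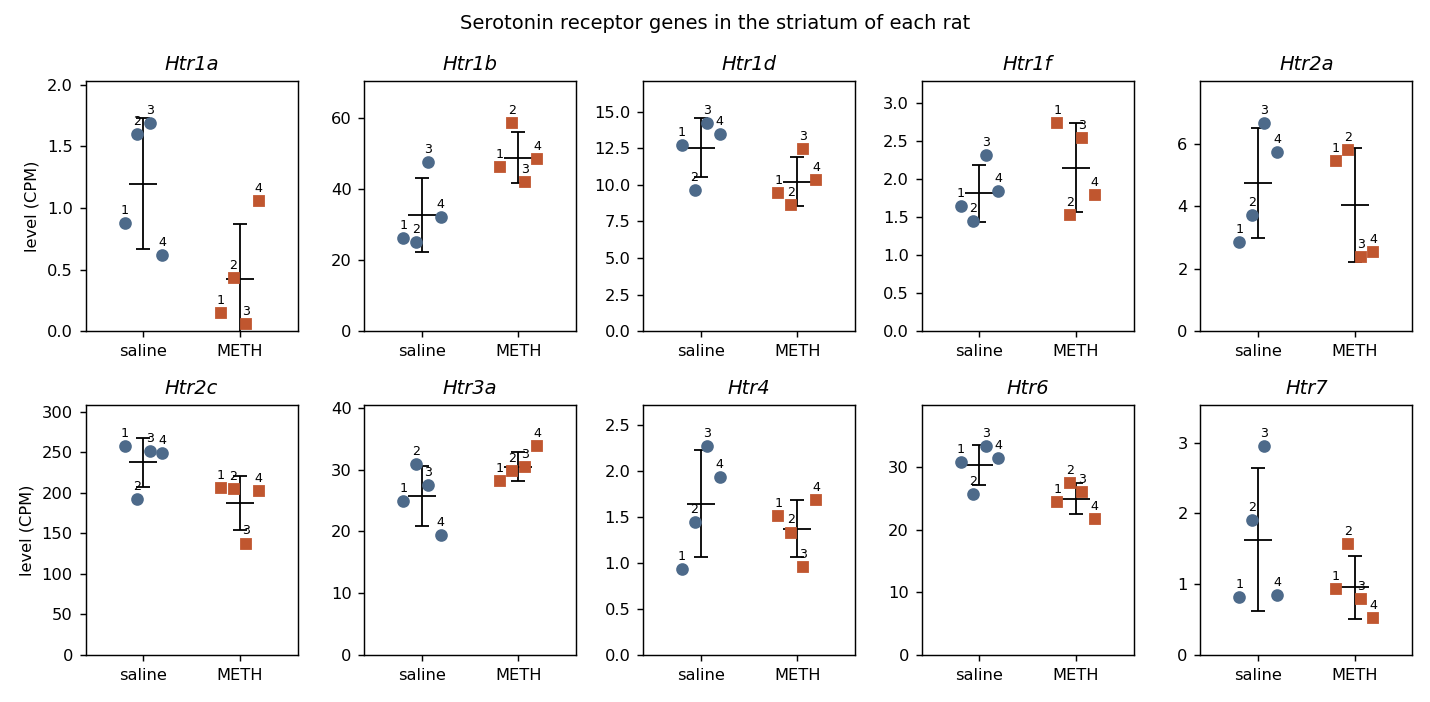
Each panel shows a receptor gene, with its level in CPM on a y axis of its own and the group on the x axis. Points are rats, numbered 1 to 4 in each group (saline, circles; METH, squares), and lines are the mean and SD, drawn down to 0 for Htr1a in METH rats. The groups overlap in every panel, in Htr1b through saline replicate 3 and in Htr1a through METH replicate 4.

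Of the Gq-coupled receptors, Htr2c was the best-counted gene of all 10. It encodes a receptor of striatal projection neurons whose transcript is edited by adenosine deaminases, which gene counts do not show. Htr2c was at 257, 192, 252 and 249 CPM in saline rats and at 205, 204, 137 and 203 CPM in METH rats. In each group 3 rats lay close together and 1 lay lower, saline replicate 2 and METH replicate 3, so that saline replicate 2 was within the METH range. The mean was 237.5 ± 30.4 CPM in saline rats (SD, n = 4) and 187.4 ± 33.4 CPM in METH rats (SD, n = 4), 0.789 times the saline value with a 95% interval from 0.651 to 0.956. The log2 fold change was -0.34 (SE 0.13), with an unadjusted p of 0.0195 and an FDR of 0.354 by the edgeR quasi-likelihood test, and the exact permutation p was 0.114. Without METH replicate 3, the library that stood apart, the log2 fold change was -0.22, with an unadjusted p of 0.0434 by the same test. Without saline replicate 2 it was -0.43, and without saline replicate 1 it was -0.30 with an unadjusted p of 0.0531.

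Htr2c is also known for its high level in the choroid plexus, the tissue that makes the cerebrospinal fluid. Of 12 choroid plexus markers 4 were tested and 0 were called. At an unadjusted p under 0.05, 1 was higher in METH rats, beside 6.26% of all genes. The summed level of all 12 was between 7.46 and 8.22 CPM in saline rats and between 8.95 and 13.4 CPM in METH rats. Folr1, Clic6 and Kcne2 made up most of that sum. Ttr, the most abundant choroid plexus transcript, had between 0 and 36 counts per rat, and Otx2 had 0 in every rat. The part of choroid plexus tissue in the Htr2c values was not tested.

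Htr2a, which encodes the cortical receptor targeted by hallucinogens, was spread over the same range in both groups. It was at 2.85, 3.70, 6.67 and 5.72 CPM in saline rats and at 5.43, 5.81, 2.37 and 2.53 CPM in METH rats. Its log2 fold change was -0.23 (SE 0.34, 95% interval -0.97 to 0.51). With 1 rat left out it was between -0.45, without METH replicate 2, and -0.02, without saline replicate 3. Saline replicate 1, the rat with the most Slc17a7, had the lowest Htr2a of the saline rats. METH replicate 2, the METH rat with the most Slc17a7 at 12.2 CPM, had the highest Htr2a of the METH rats. A relation between Slc17a7 and Htr2a was not tested.

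Htr3a, the channel subunit, is known from a class of inhibitory interneurons and had the second highest fold change. It was at 24.97, 30.9, 27.5 and 19.4 CPM in saline rats and at 28.1, 29.7, 30.4 and 33.7 CPM in METH rats. The METH rats lay close together, and only saline replicate 2 exceeded 3 of them. The log2 fold change was 0.25 (SE 0.13), with an unadjusted p of 0.0823 and an FDR of 0.494 by the edgeR quasi-likelihood test. Without saline replicate 4 it was 0.13, and without saline replicate 2 it was 0.35, with an unadjusted p of 0.0203 and an FDR of 0.423 by the same test. Of 12 markers of interneurons that include the Htr3a type and others, 10 were tested and 0 were called. At an unadjusted p under 0.05, 1 was lower, Prox1, beside 4.88% of all genes. Of the 10, 4 had log2 fold changes above 0 and 6 below. Vip, with between 1 and 30 counts per rat, and Npy did not pass the filter on low counts.

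Among the Gs-coupled receptors, Htr6 had the most even values. It encodes a receptor known for its high level in the striatum. Htr6 was at 30.9, 25.8, 33.3 and 31.5 CPM in saline rats and at 24.5, 27.5, 26.1 and 21.7 CPM in METH rats. Saline replicate 2 lay among the METH rats, and the other saline rats lay above all METH rats. The mean was 30.4 ± 3.23 CPM in saline rats (SD, n = 4) and 24.9 ± 2.47 CPM in METH rats (SD, n = 4), 0.821 times the saline value with a 95% interval from 0.697 to 0.967. The log2 fold change was -0.28 (SE 0.11), with an unadjusted p of 0.0217 and an FDR of 0.367 by the edgeR quasi-likelihood test, and the exact permutation p was 0.0857. The unadjusted p stayed under 0.05 in 5 of the 8 fits that left out 1 rat, and without METH replicate 3 the log2 fold change was -0.31.

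Htr4 and Htr7 had few counts and wide intervals. Htr7 was at 0.823, 1.90, 2.95 and 0.851 CPM in saline rats and at 0.930, 1.57, 0.791 and 0.527 CPM in METH rats. Its log2 fold change was -0.76 (SE 0.49), which became -0.31 without saline replicate 3, the highest rat. Htr4 was at 0.933 to 2.27 CPM in saline rats and at 0.960 to 1.69 CPM in METH rats. Its log2 fold change was -0.26 (SE 0.37) and its 95% interval, from -1.05 to 0.52, spans 0. Leaving out saline replicate 1 gave -0.45 and leaving out saline replicate 3 gave -0.07.

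The rats did not contribute evenly to the 10 genes. Saline replicate 3 was the highest saline rat for 8 of the 10 receptor genes and the lowest for 0. Saline replicate 2 was the lowest for 5, and METH replicate 3 was the lowest METH rat for 5. The SD between rats was above that of counting error in every gene and group, but an SD from 4 rats is imprecise and some excesses were small. For Htr1f in saline rats it was 20.5% of the mean, where counting error alone gives 16.6%. For Htr4 in METH rats it was 22.7%, where counting error alone gives 19.2%. For Htr2c the SD was 12.8% of the mean in saline rats, where counting error alone gives 1.45%. For Htr1a in METH rats it was 107%, where counting error alone gives 34.8%.

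**Figure D3:**
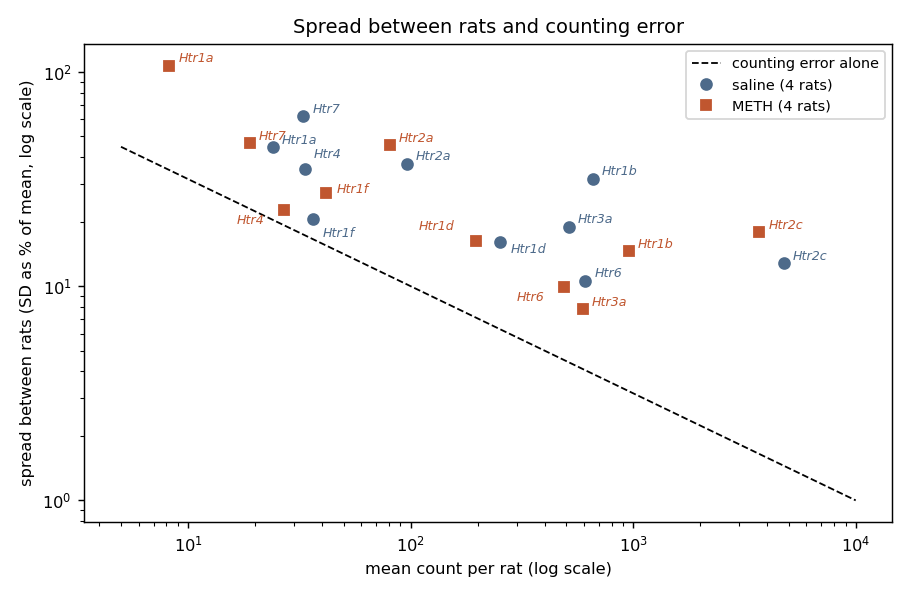
The x axis gives the mean count per rat and the y axis the SD between rats as a percent of the mean, both on log scales, for each receptor gene in saline rats (circles) and METH rats (squares). The dashed line is the spread that counting error alone gives, and all points lie above it, from 107% for Htr1a in METH rats to 7.79% for Htr3a in METH rats.

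The ratio of the counts of a pair of genes within a rat does not depend on how the libraries were scaled, and such ratios were computed for the 5 receptor genes with a mean of at least 100 counts in each group. Of the 10 pairs, 3 had METH and saline rats that did not overlap, and all 3 have Htr1b as the numerator. Htr1b over Htr2c was between 0.102 and 0.189 in saline rats and between 0.225 and 0.305 in METH rats. Htr1b over Htr6 was between 0.847 and 1.43 in saline rats and between 1.604 and 2.23 in METH rats. Htr1b over Htr1d was between 2.06 and 3.34 in saline rats and between 3.35 and 6.80 in METH rats, where the nearest rats almost touch. The mean differences in log2 ratio were 0.96, 0.90 and 0.90. Htr2c over Htr6 overlapped, between 7.45 and 8.32 in saline rats and between 5.26 and 9.33 in METH rats. Among 9687 other genes at that depth, 22.7% gave a ratio of Htr1b to the gene without overlap, so that separation is common for Htr1b and is not particular to the receptor genes. These ratios are descriptions with no test, and the pairs share genes.

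**Figure D4:**
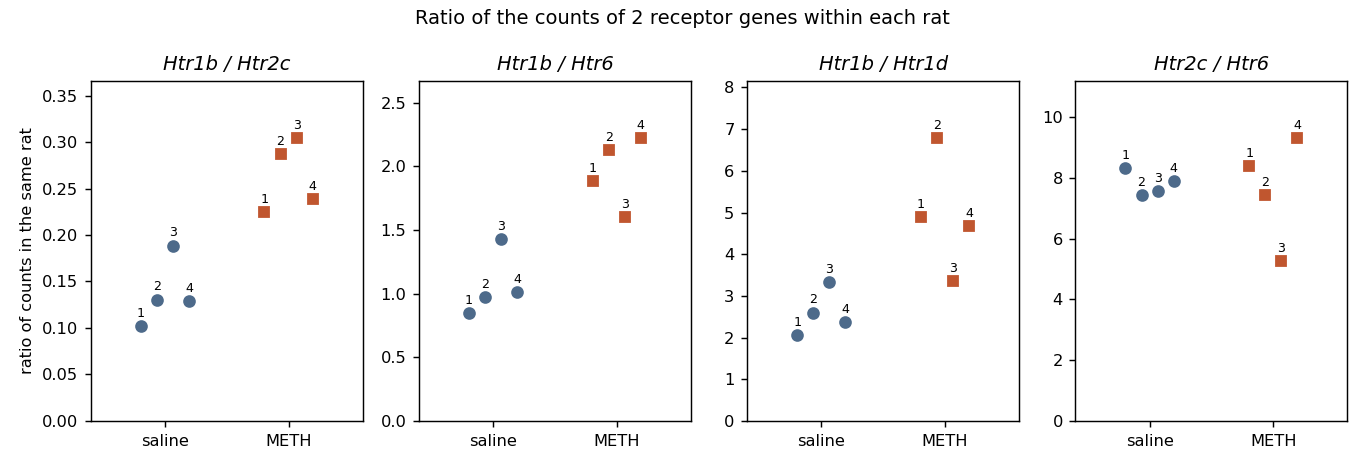
Each panel shows the ratio of the counts of a pair of receptor genes in the same rat on the y axis, with saline rats as circles and METH rats as squares, numbered 1 to 4. The first 3 panels, with Htr1b on top, separate the groups and the fourth, Htr2c over Htr6, does not, with METH rats between 5.26 and 9.33.

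Genes whose levels followed a receptor gene most closely over the 8 rats were found by the root mean square difference of log2 CPM, each gene being centred on its own mean. For Htr1b they were Clvs2 at 0.14, Gpr63 at 0.17 and Pex5 at 0.17, where the SD of Htr1b itself over the rats was 0.45. For Htr2c they were Gemin4 at 0.06, Exoc1 at 0.06 and Slc5a7 at 0.08, where the SD of Htr2c was 0.30. Slc5a7 encodes the choline transporter of cholinergic interneurons, and its log2 fold change was -0.28. Those of the other listed markers of these cells were 0.08 for Chat and for Slc18a3, -0.09 for Lhx8, -0.10 for Ecel1 and -0.86 for Zic4. For Htr6 the closest genes were Amdhd2 at 0.08, Riok1 at 0.08 and Zc2hc1c at 0.08, where the SD of Htr6 was 0.21. For Htr1a they were Mfsd4 at 0.35, Cartpt at 0.52 and Lrrc43 at 0.55, where the SD of Htr1a was 1.27. These are descriptions over 8 rats that share libraries.

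Of the other serotonin receptor genes, Htr5a and Htr5b were tested and 0 were called. Htr5a, a further Gi/o-coupled receptor, was at 5.18 ± 0.591 CPM in saline rats (SD, n = 4) and at 4.06 ± 1.13 CPM in METH rats (SD, n = 4), and its log2 fold change was -0.35 (FDR 0.581 by the edgeR quasi-likelihood test). Htr5b was at 0.463 ± 0.291 CPM (SD, n = 4) and 0.576 ± 0.412 CPM (SD, n = 4) in the same order. Htr3b, the usual partner subunit of Htr3a, had 0 counts in all 8 rats. Htr2b had 4 counts in METH replicate 2 and 0 in the others.

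The genes for making, moving and breaking down serotonin were described by a list of 10, of which 8 were tested and 0 were called. Gch1, which makes the cofactor of tryptophan hydroxylase, was higher in METH rats at an unadjusted p of 0.0436 by the edgeR test. It was at 0.592 ± 0.275 CPM in saline rats (SD, n = 4) and 1.21 ± 0.417 CPM in METH rats (SD, n = 4). Every METH rat was above every saline rat, beside 3.75% of all genes. Gch1 had only between 5 and 37 counts per rat, and its mean log2 CPM of 0.013 lay below the minimum level for a call. Maoa, which degrades serotonin, was lower at an unadjusted p of 0.0317 by the same test, at 58.7 ± 5.12 and 48.8 ± 7.15 CPM (SD, n = 4 each). The FDRs of Gch1 and Maoa were 0.430 and 0.401. At an unadjusted p under 0.05 by that test, 6.26% of all genes were higher in METH rats and 4.88% lower. Slc6a4, the serotonin transporter, which is made in raphe cell bodies, had between 0 and 3 counts per rat, whereas Tph2, the neuronal tryptophan hydroxylase, had between 71 and 138. Of 6 markers of serotonergic cell bodies, 2 were tested and 0 were called.

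The signalling lists of the receptor families also held 0 called genes. At an unadjusted p under 0.05 by the edgeR test, 11.1% of all genes differed, 4.88% lower and 6.26% higher in METH rats. On the Gi/o side 1 of 11 tested genes had such a p, near the share of all genes. This was Gnai1, which encodes an inhibitory G protein subunit, with a log2 fold change of -0.30. On the Gq side, Plcb4, which encodes a phospholipase C, at -0.31 and Prkca, which encodes a protein kinase C, at -0.45 were lower in METH rats at that threshold. On the Gs side 1 of 10 tested genes passed that threshold, also near the share of all genes. It was Ppp1r1b, which encodes the phosphatase inhibitor DARPP-32 of projection neurons, at 0.25. Among 15 tested genes for receptor partners, trafficking and editing, Anxa2 at 0.45 and Mpp3 at 0.19 were higher and Grk5, a receptor kinase, at -0.46 was lower at that threshold.

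Lists of cell types and of neuronal activity were examined beside these values. Of 12 immediate early genes, 9 were called higher in METH rats and 0 lower, beside 0.516% of all genes called in either direction. Their median log2 fold change was 1.65, beside a median size of 0.29 for the receptor genes. These calls therefore do not show whether differences of the size seen in the receptor genes could be called. Microglial markers had 2 called lower of 9, Cx3cr1 and Mpeg1. The log2 fold changes of the 9 were below 0 in 7 and above 0 in 2, C1qa at 0.11 and C1qb at 0.09. The lists of projection neurons, direct-pathway and indirect-pathway neurons, cholinergic interneurons, cortical neurons, septal and diencephalic genes, astrocytes, oligodendrocytes, vascular cells and housekeeping genes held 0 called genes. How far such lists move the receptor values was not tested.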

How the data were processed

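Striatal mRNA from 4 METH and 4 saline rats was analysed. The authors captured polyadenylated RNA with TruSeq v2, sequenced paired 101 bp reads, removed adapters with cutadapt 1.18, used STAR 2.7.0e to align to rn6 and deposited raw counts per gene from featureCounts of Subread 1.6.4. Annotation, strand and multi-mapping settings are not given in the sources used here. Columns were assigned to rats by the group and number in their names.

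Genes were filtered by filterByExpr (minimum count 10), scaled by TMM and tested with the edgeR 4.0.16 quasi-likelihood F-test in R 4.3.3, with Benjamini-Hochberg adjustment. The call threshold was an FDR under 0.05 and an average log2 CPM above 1. Log2 CPM had a prior count of 2. The SE is the size of the log2 fold change divided by the square root of F. DESeq2 1.42.0, limma-voom (limma 3.58.1), other scalings, filters, a replicate block and leaving out each rat were the alternatives. The 95% intervals of fold changes come from the edgeR fit and, like the p-values, include the spread between these rats. The floor of 3 counts covers counting error only.

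The receptor genes and the lists were chosen with earlier results of these data known. The genes named were all 10 receptors, list genes with an unadjusted p under 0.05 or near 0, and the 3 genes most alike. The ratios within rats and their background were added after the data were seen. Levels were not compared between genes, because gene lengths were not used. A list gene is not reported here. The fit was tested on simulated data.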

Additional observations from a re-analysis of the deposited data

Results flagged for a closer look

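In Htr2c, 1 rat of each group lay apart from the other 3 on the low side. In saline rats, the gap from replicate 2 to the nearest rat was 0.891 of the whole range of the group, and in METH rats the gap from replicate 3 was 0.964. Both exceed Dixon's critical value for 4 samples. These were 2 of 20 groups examined, and chance flags about 1 in 20. METH replicate 3 is also the library that stood apart on the first principal component. Without saline replicate 2 the log2 fold change of Htr2c was -0.43, and without METH replicate 3 it was -0.22.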

How the results depend on the processing

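The number of all genes called moved from 62 to 186 with DESeq2, to 170 with the likelihood ratio test and to 37 with the replicate block, and lay between 37 and 70 when 1 rat was left out, with 37 without saline replicate 2. The number of receptor genes called was 0 under every other scaling, filter, test and call rule tried and between 0 and 1 when 1 rat was left out. The exception was Htr1b without saline replicate 3, whose log2 fold change was 0.81 (FDR 0.0117). The number of receptor genes at an unadjusted p under 0.05 was 4, was 3 or 4 under the other settings, and lay between 2 and 5 when 1 rat was left out, with 2 (Htr1b and Htr2c) without saline replicate 3. No receptor gene changed direction under any setting run. The filter at 1 CPM in 4 rats removed Htr1a and Htr7, which have no value there.

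Rats with the same number are different animals, and their deviations from the group means did not pair them (correlations from -0.201 to 0.0355, with 1 of 4 closest to its own number). With the replicate block, Htr1b was at 0.61 with an FDR of 0.491 and Htr2c at -0.35 with an FDR of 0.584. Counting error alone gives 34.8% of the mean for Htr1a and 22.9% for Htr7 in METH rats, beside 1.65% for Htr2c, and the spread between rats lay above it in each.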

Other observations

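Tph1, the tryptophan hydroxylase known from the pineal gland and peripheral tissues, had 344 counts in METH replicate 1 and between 0 and 9 in the other 7 rats. Tph2 had between 71 and 138 counts in the same libraries, while Fev, a transcription factor of serotonin neurons, had between 0 and 3. The sources of these reads were not tested.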
